A study of Mus musculus with 6 samples.

Results

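The genes described here are 10 enzymes of the antioxidant defence, with heme oxygenase 1 (Hmox1) at their head: Hmox1, Nqo1, Gclc, Gclm, Txnrd1, Gsr, Prdx1, Sod1, Sod2 and Cat. They were chosen by name, as the non-control probes of the arrays whose gene name was one of these 10. Of 18589 gene names with a tested probe these were 10, and they were read by 12 probes on 21 spots, with a second probe for Gsr and for Sod1. All 12 probes were tested. Where a gene had a second probe, the brightest one stands for it and the other is given beside it.

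Hmox1 cleaves heme to biliverdin, iron and carbon monoxide. Together with the quinone reductase Nqo1 and the enzymes of glutathione and thioredoxin metabolism it belongs to the genes that the transcription factor NRF2 (Nfe2l2) switches on through antioxidant response elements, and BACH1 represses several of them. Superoxide dismutases turn superoxide into hydrogen peroxide, which catalase and the peroxiredoxins reduce to water. In keratinocytes this defence answers ultraviolet light, electrophiles and inflammation.

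The samples were mouse HACA cells in which a short hairpin RNA targets Loxl2 (shLoxl2), a lysyl oxidase-like enzyme, or Snail (shSnail), the zinc-finger repressor encoded by Snai1, and a control line whose hairpin targets GFP (shGFP). Each of 6 Agilent 2-colour arrays held RNA of a silenced line in a channel and shGFP RNA in the other. The 4 shLoxl2 arrays held 2 numbered RNA samples, each labelled once in Cy3 and once in Cy5, and the 2 shSnail arrays held 2 numbered samples, both in Cy5. The design text speaks of 3 hybridisations per condition. The labels do not say whether numbered samples came from separate cultures or whether a line is more than 1 clone, so the p-values measure a spread that may be technical. For shSnail against shGFP that spread comes in part from dye-swapped arrays of the same shLoxl2 sample, each counted singly. The shGFP RNA counts as 1 control sample, whose own spread the tests leave out. All 4 shLoxl2 arrays were scanned on the same day and both shSnail arrays on another, so scan day and silenced line cannot be told apart.

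Between 55.9% and 74.9% of probe spots in the green channel and between 85.4% and 92.4% in the red channel were well above background, and having so few arrays limits the precision. Dye and silencing were mixed in the ratios of single arrays: once turned to silenced over shGFP, the arrays of shLoxl2 replicate 1 correlated across probes at 0.0226 and those of replicate 2 at -0.0319, whereas averaging over both dyes gave a correlation of 0.676 between the replicates. The Loxl2 probe gave log2 ratios of 1.38 and 1.04 with shLoxl2 RNA in Cy3 and of -1.30 and -0.68 with shLoxl2 RNA in Cy5, so its sign followed the dye. On the shSnail arrays it stood at -0.95 and -0.71. The Snai1 probe was not well above background in the silenced channel of any of the 6 arrays. Neither probe checks the labels, and all directions rest on the labels of the dyes and lines.

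RefSeq promoters of GRCm38.p6 were at hand for Nqo1, Gclm, Txnrd1 (3 starts), Prdx1, Sod1, Sod2 and Cat, which makes 9 promoters of 250 bases upstream of a start. Hmox1, Gclc and Gsr are named only. The 9 promoters were searched on both strands for the core of the antioxidant response element (TGACNNNGC), for the E-box that Snail binds (CACCTG) and for the AP-1 site (TGACTCA). The element core stood in 4 of the 9, in Gclm, Prdx1, Sod1 and a start of Txnrd1, against 10.2% of all 32841 promoters of this length. CACCTG stood in 0 of the 9 (17.2% of all promoters), and TGACTCA stood in that of Prdx1 alone (4.46% of all promoters). A match describes the letters only, and an element more than 250 bases upstream would be missed. The 4 promoters below are those of the gene that was lower in shLoxl2 cells without a match (Nqo1), of the gene that was lower in shLoxl2 cells with 3 matches (Prdx1), of Sod1, which like Sod2 was higher in shSnail cells, and of the glutathione gene with the element core (Gclm). The Sod2 promoter had no match to any of the 3 motifs and is not shown. Capitals mark the matches, which in Prdx1 are a TGACTCA beginning 237 bases before the start and a stretch beginning 133 bases before it, where the element core and a second AP-1 site overlap.
Nqo1 (chr8:107403206-107403455, minus strand): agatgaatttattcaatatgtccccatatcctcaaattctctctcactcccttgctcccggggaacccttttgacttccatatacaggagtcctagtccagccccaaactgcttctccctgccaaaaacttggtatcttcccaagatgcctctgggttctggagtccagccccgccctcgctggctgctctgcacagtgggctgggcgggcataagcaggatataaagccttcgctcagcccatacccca
Prdx1 (chr4:116685349-116685598, plus strand): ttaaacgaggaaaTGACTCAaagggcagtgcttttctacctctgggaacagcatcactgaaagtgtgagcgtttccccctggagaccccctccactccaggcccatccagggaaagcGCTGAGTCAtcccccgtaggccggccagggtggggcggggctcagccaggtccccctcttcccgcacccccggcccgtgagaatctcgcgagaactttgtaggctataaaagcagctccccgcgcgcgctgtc
Sod1 (chr16:90220512-90220761, plus strand): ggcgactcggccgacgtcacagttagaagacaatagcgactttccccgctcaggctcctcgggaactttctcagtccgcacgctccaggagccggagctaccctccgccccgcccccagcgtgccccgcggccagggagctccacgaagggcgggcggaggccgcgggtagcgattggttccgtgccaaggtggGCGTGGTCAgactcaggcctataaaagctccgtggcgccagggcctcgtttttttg
Gclm (chr3:122245307-122245556, plus strand): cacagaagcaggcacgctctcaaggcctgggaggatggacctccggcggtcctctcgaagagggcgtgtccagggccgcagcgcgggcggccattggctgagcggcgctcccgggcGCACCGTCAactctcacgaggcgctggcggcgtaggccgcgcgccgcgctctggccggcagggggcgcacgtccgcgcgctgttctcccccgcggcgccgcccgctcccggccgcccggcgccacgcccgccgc

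Calls among the antioxidant genes went in both directions. In shLoxl2 cells Hmox1 rose and Nqo1 and Prdx1 fell against shGFP cells, and the other 7 genes did not pass (limma adjusted p below 0.05 over all 19752 tested probes). These 3 calls among 10 genes stand beside 14.2% of all 18589 gene names called in that comparison. In shSnail cells Hmox1, Sod1 and Sod2 rose and 0 fell, beside 6.07% of gene names called higher and 15.3% called in either direction. At an unadjusted p below 0.05, 3 were also lower in shSnail cells. This balance depended on the processing: under median centring in place of loess 1 gene (Hmox1) was called higher and 4 lower in shSnail cells (Nqo1, Gclc, Gclm and Cat), and with no background subtraction or a strict filter on dim probes 3 were called higher and 3 lower (Nqo1, Gclm and Cat). The median log2 fold change of the 10 genes was -0.02 in shLoxl2 cells and 0.11 in shSnail cells, beside -0.01 and -0.04 over all gene names. Both comparisons share the shGFP RNA, and fewer cells of a type cannot be told apart from less RNA per cell.

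**Figure D1:**
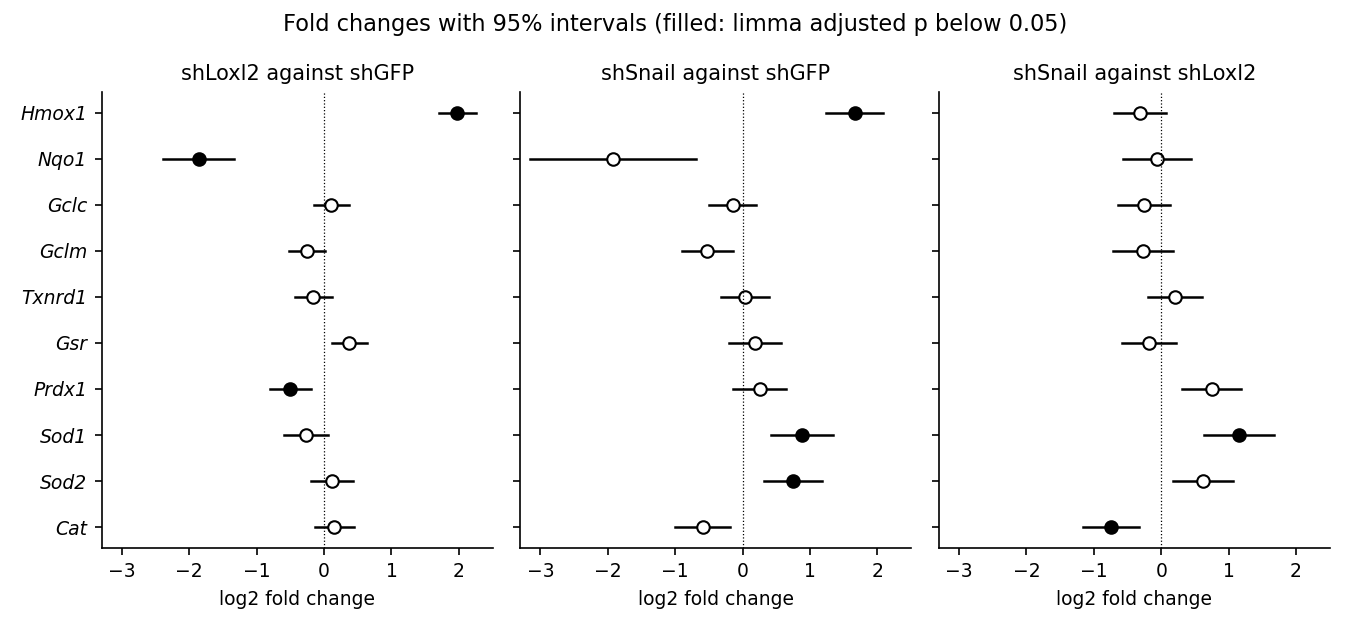
Log2 fold change of each of the 10 genes (points, brightest probe) with its 95% interval in shLoxl2 against shGFP, shSnail against shGFP and shSnail against shLoxl2, filled where the limma adjusted p was below 0.05. Hmox1 lies at 1.98 in shLoxl2 cells and 1.66 in shSnail cells, while Sod1 and Cat are the 2 genes that pass between the silenced lines.

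Hmox1 was the gene of the 10 with the highest ratio to shGFP in both silenced lines. On the shLoxl2 arrays, taking replicate 1 in Cy3, replicate 1 in Cy5, replicate 2 in Cy3 and replicate 2 in Cy5 in turn, its log2 ratio was 1.69, 2.12, 2.11 and 1.99. The log2 levels behind these ratios, normalised so that arrays can be compared, were 12.19, 12.20, 12.37 and 12.30 in the shLoxl2 channel and 10.50, 10.08, 10.26 and 10.31 in the shGFP channel. On the shSnail arrays the ratios were 1.76 and 1.72, with levels of 12.05 and 12.07 in the shSnail channel and 10.29 and 10.35 in the shGFP channel. Every silenced channel lay above every shGFP channel, and Hmox1 was well above background in all 12. The shLoxl2 and shSnail levels were apart by less than the levels of either from shGFP.

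The fitted rise of Hmox1 in shLoxl2 cells was 3.94-fold (log2 fold change 1.98 with SE 0.11, n = 2, limma adjusted p = 0.00100). It was the 72nd highest of 19752 probes. Left to a single shLoxl2 sample, the value was 2.05 without replicate 1 and 1.90 without replicate 2, and it passed both times. In shSnail cells the rise was 3.17-fold (log2 fold change 1.66 with SE 0.18, n = 2, limma adjusted p = 0.00433), the 69th highest. It was 1.74 with no dye correction and 1.70 with a scaled one. Between shSnail and shLoxl2 cells Hmox1 differed by -0.32 (95% interval from -0.71 to 0.08, limma adjusted p = 0.226), which did not pass.

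With shSnail replicate 1 or 2 left out, Hmox1 kept its size in shSnail cells (1.64 and 1.68), but its limma adjusted p was 0.0663 and 0.0609, and in those fits 2 probes were called in all. Under median centring in place of loess it was 1.15 in shSnail cells (adjusted p = 0.00338), and the difference of shSnail from shLoxl2 widened to -0.83 (adjusted p = 0.0156). The Hmox1 probe lies on chromosome 8, 77996380 to 77996439 in mm8.

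**Figure D2:**
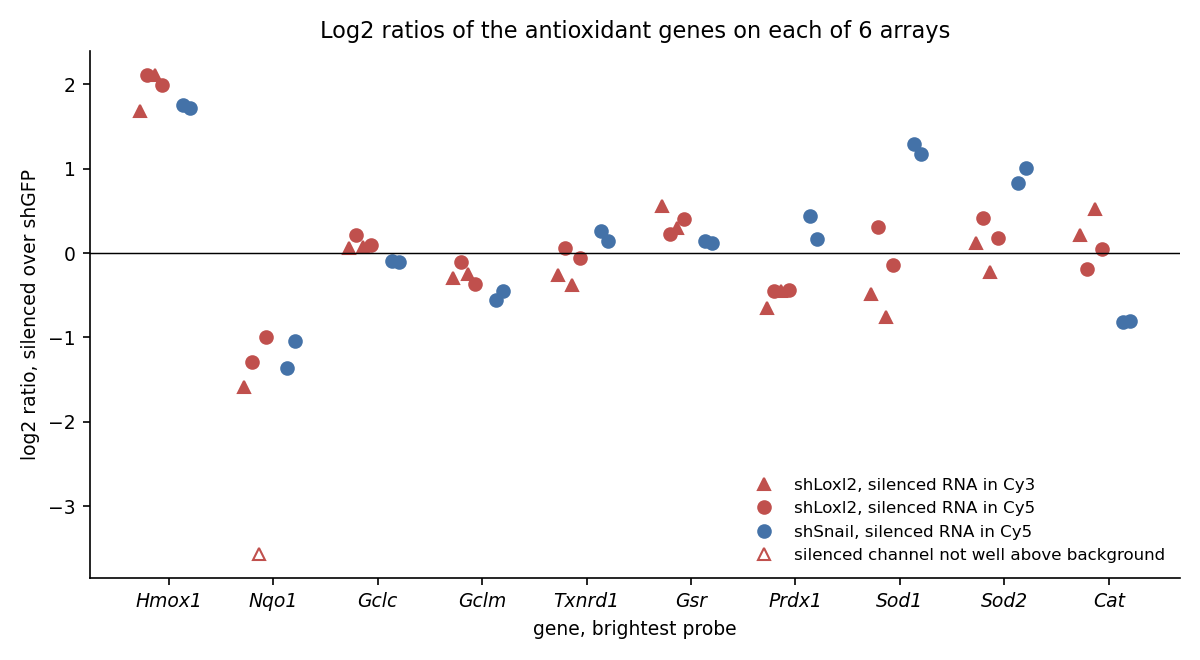
Log2 ratio of silenced over shGFP RNA (vertical axis) for each of the 10 genes on each array. Triangles are shLoxl2 arrays with the silenced RNA in Cy3, red circles shLoxl2 arrays in Cy5 and blue circles shSnail arrays, and the open symbol is the Nqo1 value of -3.57 whose shLoxl2 channel was not well above background. Hmox1 lies between 1.69 and 2.12 on all 6 arrays. The shSnail and shLoxl2 ratios do not overlap for Gclc, Gclm, Txnrd1, Gsr, Prdx1, Sod1, Sod2 and Cat. These ratios carry the dye effect, and both shSnail arrays had the silenced RNA in Cy5, so dye and line cannot be told apart in this separation. Of these genes only Sod1 and Cat passed the test between the silenced lines. The share of all probes without such overlap was not counted.

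Nqo1, which reduces quinones with NADPH or NADH, went the other way from Hmox1. Its log2 ratio on the 4 shLoxl2 arrays was -1.58, -1.29, -3.57 and -0.99, and on the 2 shSnail arrays -1.36 and -1.05. All 6 were below 0. The value of -3.57 is not a measured fold, because the shLoxl2 channel of that array, at a log2 level of 6.53, was not well above background; the shLoxl2 levels on the other 3 arrays were 9.44, 9.83 and 9.03, and the 4 shGFP levels were 11.02, 11.12, 10.10 and 10.02.

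In shLoxl2 cells Nqo1 fell (limma adjusted p = 0.00566, n = 2), and its fitted value of -1.86 (SE 0.21) takes in the dim array and so is no measured fold. Without replicate 2, which holds the dim channel, it was -1.44 (limma adjusted p = 0.0142). It was -0.99 with no background subtraction (limma adjusted p = 0.00349), and at -2.22 it no longer passed with the scanner software's log ratios (limma adjusted p = 0.0523). In shSnail cells it was at -1.92 (SE 0.51, 95% interval from -3.15 to -0.69), and did not pass (limma adjusted p = 0.0533).

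That shSnail value carries the dim array too, through the dye effect taken from the shLoxl2 pairs. The dye effect of Nqo1 was 0.15 in pair 1 and 1.29 in pair 2. With no dye correction Nqo1 was at -1.20 in shSnail cells (limma adjusted p = 0.0882), with a scaled correction at -1.53 (0.0668), and neither passed. It passed without shLoxl2 replicate 1 (-2.49, limma adjusted p = 0.00396), without shLoxl2 replicate 2 (-1.35, limma adjusted p = 0.00852), with no background subtraction (-1.20, limma adjusted p = 0.00163), under median centring (-2.18, limma adjusted p = 0.00451) and with the strict filter (limma adjusted p = 0.0391). Between the silenced lines it differed by -0.06 (95% interval from -0.57 to 0.45), and by -0.55 under median centring, where it passed (limma adjusted p = 0.0430). The probe lies on chromosome 8, 110277669 to 110277728 in mm8. The stretch of promoter shown above had no match to any of the 3 motifs, and bases further upstream were not searched.

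**Figure D3:**
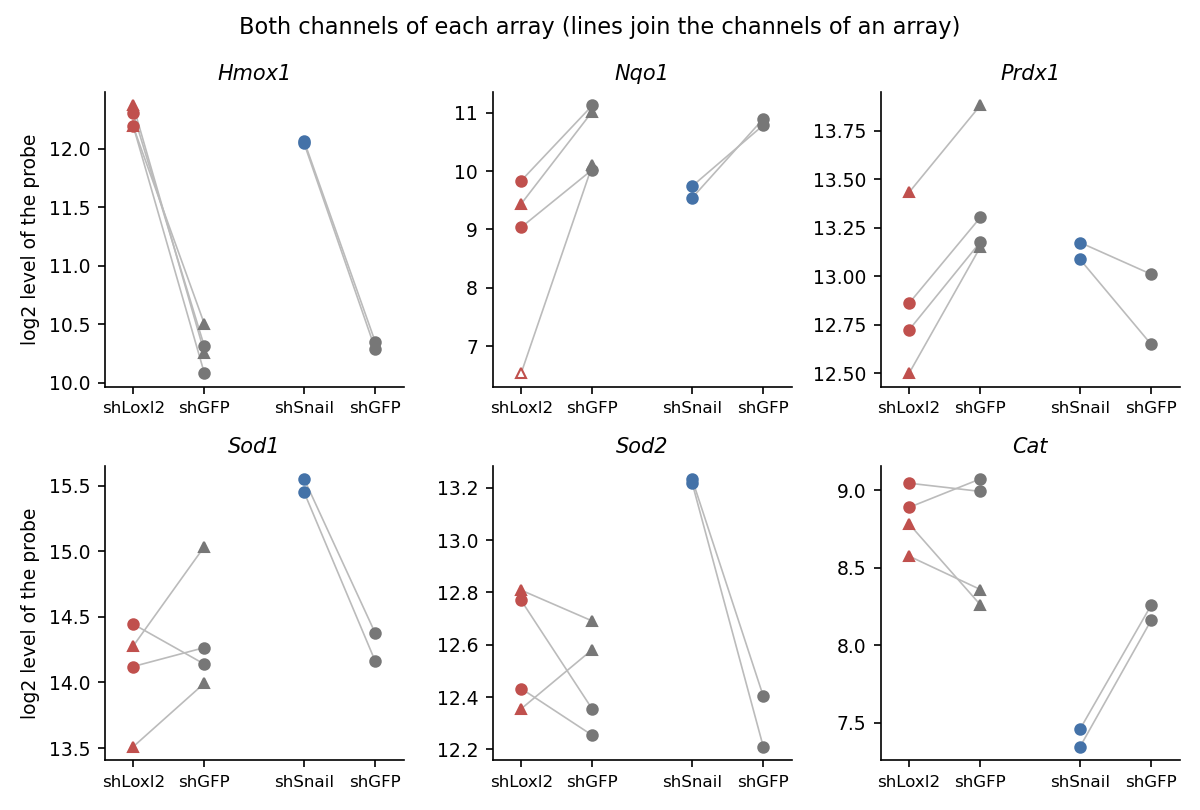
Normalised log2 level of 6 of the genes (vertical axis) in both channels of each array, silenced left of shGFP, with a line joining the channels of an array. Triangles are arrays with the silenced RNA in Cy3, circles in Cy5, and the open symbol is not well above background. The silenced Hmox1 levels lie between 12.05 and 12.37, above all shGFP levels, whereas Prdx1 lines slope in opposite directions in shLoxl2 and shSnail arrays.

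Gclc and Gclm encode the catalytic and the modifier subunit of glutamate-cysteine ligase, which makes the first step of glutathione synthesis. Gclc had log2 ratios of 0.06, 0.22, 0.07 and 0.10 on the shLoxl2 arrays and of -0.09 and -0.11 on the shSnail arrays. All shLoxl2 ratios were above 0 and both shSnail ratios below it, yet all lay close to 0. The fitted values, 0.11 in shLoxl2 cells (SE 0.11, limma adjusted p = 0.542) and -0.15 in shSnail cells (SE 0.14, limma adjusted p = 0.54), did not pass. Under median centring Gclc passed as lower in shSnail cells, at -0.51 against shGFP (limma adjusted p = 0.0491) and at -0.77 against shLoxl2 (limma adjusted p = 0.0146).

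Gclm was below 0 on all 6 arrays, with log2 ratios of -0.29, -0.10, -0.25 and -0.37 in shLoxl2 cells and of -0.56 and -0.45 in shSnail cells. Its fitted value was -0.25 in shLoxl2 cells (95% interval from -0.52 to 0.02, limma adjusted p = 0.206). In shSnail cells it was -0.52 (95% interval from -0.90 to -0.15, limma adjusted p = 0.0733). It passed there with no dye correction, at -0.50 (limma adjusted p = 0.0349), and missed the threshold with a scaled one (limma adjusted p = 0.0501). It also passed under median centring, at -0.97 (limma adjusted p = 0.0120), with no background subtraction (limma adjusted p = 0.0115), with the strict filter (limma adjusted p = 0.0403) and without shLoxl2 replicate 2 (limma adjusted p = 0.0322). The groups of ratios do not overlap, but the difference of -0.27 between shSnail and shLoxl2 cells did not pass (limma adjusted p = 0.336), except under median centring (-0.68, limma adjusted p = 0.0451). The probes lie on chromosome 9, 77579173 to 77579232, and chromosome 3, 122258426 to 122258485, in mm8.

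Txnrd1 reduces thioredoxin, and Gsr reduces oxidised glutathione, both with NADPH. Txnrd1 had log2 ratios of -0.26, 0.06, -0.37 and -0.06 on the shLoxl2 arrays and of 0.26 and 0.14 on the shSnail arrays, so that the lower shLoxl2 values were those with the silenced RNA in Cy3. It was at -0.16 in shLoxl2 cells (limma adjusted p = 0.400) and at 0.04 in shSnail cells (limma adjusted p = 0.891). The shSnail value turned to -0.37 under median centring and to -0.02 without shSnail replicate 1.

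The brighter Gsr probe had ratios of 0.56, 0.23, 0.29 and 0.40 in shLoxl2 cells and of 0.15 and 0.11 in shSnail cells. The dimmer one had -0.01, 0.41, 0.04 and 0.40 in shLoxl2 cells and 0.18 and 0.25 in shSnail cells. On the dimmer probe the 2 higher shLoxl2 values came from the Cy5 arrays, while the brighter one showed no such split. In shLoxl2 cells the brighter probe was at 0.37 (SE 0.11, 95% interval from 0.11 to 0.63) and missed the threshold (limma adjusted p = 0.0760), and the dimmer was at 0.21 (limma adjusted p = 0.264). The brighter probe passed when fitted as 6 single arrays with a dye term (limma adjusted p = 0.0352), with no background subtraction (limma adjusted p = 0.0231) and with the strict filter (limma adjusted p = 0.0422). In shSnail cells the values were 0.19 and 0.02, and median centring turned them to -0.27 and -0.32. Between shSnail and shLoxl2 cells they differed by -0.18 and -0.19 and did not pass, except under median centring, at -0.74 and -0.64 (limma adjusted p = 0.0144 and 0.0217). Both probes lie on chromosome 8 of mm8, at 35163862 to 35163921 and 35163297 to 35163356, and Txnrd1 on chromosome 10, 82327284 to 82327343.

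Prdx1, a peroxiredoxin of the cytosol that reduces hydrogen peroxide, had opposite signs in the silenced lines. Its log2 ratios were -0.65, -0.45, -0.45 and -0.44 on the shLoxl2 arrays and 0.44 and 0.16 on the shSnail arrays. The 4 shLoxl2 ratios were all below 0 in both dye orientations, and the 2 shSnail ratios were above 0. In shLoxl2 cells Prdx1 fell by 0.50 log2 units (SE 0.12, n = 2, limma adjusted p = 0.0482). The call rests on both shLoxl2 samples, since it was lost without replicate 1 (-0.45, limma adjusted p = 0.166) and without replicate 2 (-0.55, limma adjusted p = 0.0811). It was also lost with the scanner software's log ratios (-0.51, limma adjusted p = 0.161).

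In shSnail cells Prdx1 was at 0.25 (95% interval from -0.14 to 0.64, limma adjusted p = 0.355) and turned to -0.14 under median centring. The difference of shSnail from shLoxl2 cells was 0.75 (SE 0.17, 95% interval from 0.31 to 1.18) and missed the threshold (limma adjusted p = 0.0504). With a scaled dye effect it was 0.78 and passed (limma adjusted p = 0.0360), as it did with no background subtraction (limma adjusted p = 0.0135) and with the strict filter (limma adjusted p = 0.0302). The coordinates given for the probe run from 116190905 to 116191675 on chromosome 4 in mm8. They span 771 bases, where those of most other member probes span 60, and are not read as its length. The promoter above held the element core and both AP-1 sites.

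Both superoxide dismutases rose in shSnail cells and did not pass in shLoxl2 cells. Sod1 encodes the copper-zinc enzyme of the cytosol. On its brighter probe the log2 ratios were 1.29 and 1.18 on the shSnail arrays and -0.48, 0.31, -0.76 and -0.14 on the shLoxl2 arrays. The shSnail levels were 15.45 and 15.55, against 14.16 and 14.37 in the shGFP channel of the same arrays, while the shLoxl2 levels ran from 13.51 to 14.45. The shSnail channels lay above every other Sod1 level of the 6 arrays. In the shLoxl2 group both Cy3 ratios were below both Cy5 ratios.

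Sod1 rose 1.84-fold in shSnail cells (log2 fold change 0.88 with SE 0.19, n = 2, limma adjusted p = 0.0294). The rise was 1.23 with no dye correction and 1.07 with a scaled one, past the threshold each time. Its shLoxl2 value was -0.27 (95% interval from -0.59 to 0.05, limma adjusted p = 0.246). The difference of shSnail from shLoxl2 cells was 1.15 (SE 0.21, limma adjusted p = 0.0309). This call was lost without shSnail replicate 1 (limma adjusted p = 0.177), without shSnail replicate 2 (limma adjusted p = 0.139) and with the scanner software's log ratios (1.17, limma adjusted p = 0.0652). Without shSnail replicate 1 or 2 the rise against shGFP was 0.83 and 0.94 and no longer passed (limma adjusted p = 0.239 and 0.169), and it also missed the threshold under median centring (0.67, limma adjusted p = 0.137) and with the scanner software's log ratios (0.86, limma adjusted p = 0.0758).

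The other Sod1 probe did not show this rise. It had 10 spots and log2 ratios of 0.01 and -0.02 on the shSnail arrays and of -0.64, 0.22, 0.01 and 0.25 on the shLoxl2 arrays. It was dim, with silenced levels from 6.79 to 7.49, and was not well above background in the shLoxl2 channel of 1 array and in the shGFP channel of 2 others. Its value was -0.28 in shSnail cells (limma adjusted p = 0.429). With the scanner software's log ratios it passed in the direction opposite to the brighter probe, at -1.44 against shGFP (limma adjusted p = 0.0407) and at -1.50 against shLoxl2 (limma adjusted p = 0.0399). The brighter probe lies on chromosome 16, 90115111 to 90115170 in mm8, and the dim one at 90111887 to 90111946. The rise of Sod1 thus rests on a single probe of the pair.

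Sod2 encodes the manganese enzyme of mitochondria. Its log2 ratios were 0.83 and 1.01 on the shSnail arrays and 0.12, 0.42, -0.23 and 0.18 on the shLoxl2 arrays, without overlap. The shSnail levels of 13.23 and 13.22 stood against 12.40 and 12.21 in the shGFP channel. Sod2 rose 1.68-fold in shSnail cells (log2 fold change 0.74 with SE 0.18, n = 2, limma adjusted p = 0.0389), and was at 0.92 with no dye correction and 0.84 with a scaled one, past the threshold in both. It lost the call under median centring (0.34, limma adjusted p = 0.338) and with the scanner software's log ratios (0.78, limma adjusted p = 0.0750). Without shSnail replicate 1 or 2 it was 0.83 and 0.65 and did not pass, in fits where nearly all calls were lost.

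In shLoxl2 cells Sod2 was at 0.12 (95% interval from -0.19 to 0.43, limma adjusted p = 0.577). The difference of shSnail from shLoxl2 cells was 0.62 and did not pass (limma adjusted p = 0.0770), so the 2 lines were not shown to differ in Sod2. It passed with no background subtraction (limma adjusted p = 0.0259), with the strict filter (limma adjusted p = 0.0489) and without shLoxl2 replicate 1 (0.74, limma adjusted p = 0.0431). The probe lies on chromosome 17, 12858140 to 12858199 in mm8.

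Cat encodes catalase, the peroxisomal enzyme that splits hydrogen peroxide. Its log2 ratios were -0.82 and -0.80 on the shSnail arrays and 0.22, -0.18, 0.52 and 0.05 on the shLoxl2 arrays. Both shSnail ratios lay below all 4 shLoxl2 ratios, and the shSnail levels of 7.34 and 7.46 stood against 8.16 and 8.26 in the shGFP channel. Between the silenced lines Cat was lower in shSnail cells by a difference of -0.74 (SE 0.17, 2 arrays against 2, limma adjusted p = 0.0479). That call was lost without shLoxl2 replicate 2 (-0.62) and with the replicate number as a block (limma adjusted p = 0.0536). It was also lost without either shSnail array (-0.73 and -0.75), in fits where nearly all calls were lost. With a scaled dye effect the difference was -0.86 and passed (limma adjusted p = 0.0294).

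Against shGFP, Cat was at -0.59 in shSnail cells (SE 0.17, 95% interval from -0.998 to -0.185), just short of the threshold (limma adjusted p = 0.0645). It passed with no dye correction, at -0.81 (limma adjusted p = 0.00945), and with a scaled one, at -0.71 (limma adjusted p = 0.0214). Median centring and the scanner software's log ratios both gave -0.98 (limma adjusted p = 0.00576 and 0.0363), and it also passed with no background subtraction (-0.37, limma adjusted p = 0.0220), with the strict filter (limma adjusted p = 0.0367), without shLoxl2 replicate 1 (-0.57, limma adjusted p = 0.0347) and without shLoxl2 replicate 2 (-0.61, limma adjusted p = 0.0288). Its shLoxl2 value was 0.15 (limma adjusted p = 0.458). The coordinates given for the probe run from 103257767 to 103261110 on chromosome 2 in mm8. They span 3344 bases, where those of most other member probes span 60, and are not read as its length.

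**Figure D4:**
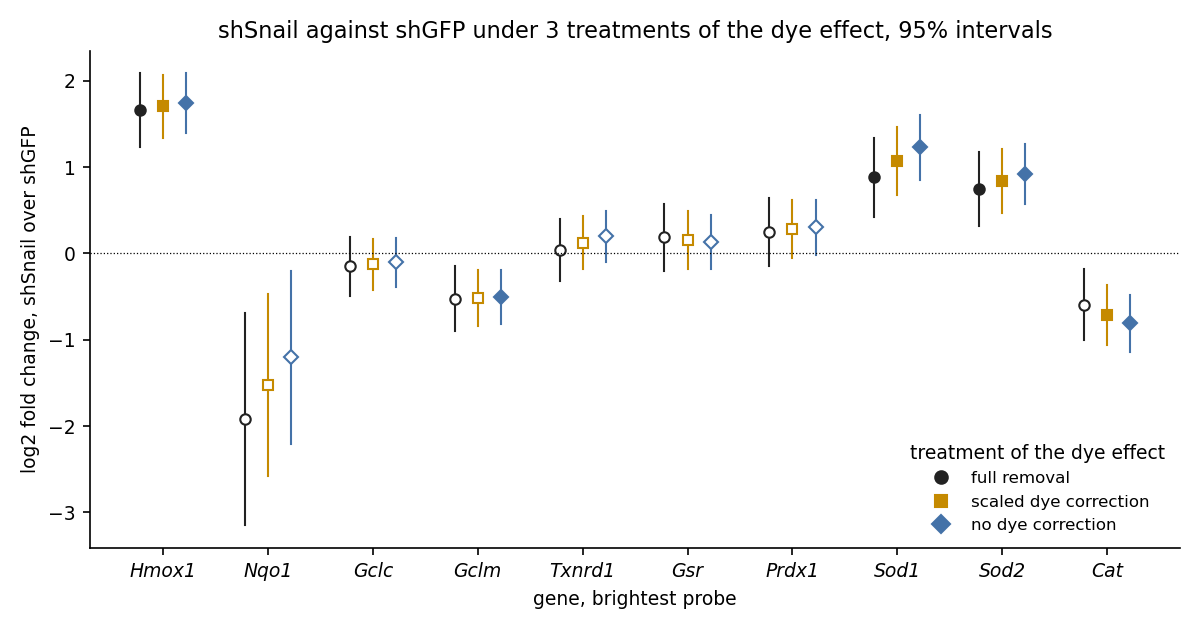
Log2 fold change of shSnail over shGFP (vertical axis, 95% intervals) for the 10 genes with the dye effect removed in full, scaled by 0.453 before removal, or left in, filled where the limma adjusted p was below 0.05. Hmox1, Sod1 and Sod2 are filled under all 3 treatments, Cat under the scaled and uncorrected ones, and Gclm where the dye effect was left in.

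How the dye effect was treated changed 2 of the shSnail calls. Both shSnail arrays had the same orientation, so the dye effect of each probe was taken from the shLoxl2 pairs, where it correlated at 0.794 between the pairs. The shSnail ratios followed it with a slope of 0.453 across probes, so full removal takes away more than that slope. Of the 10 genes, 3 rose and 0 fell with full removal, 3 rose and 1 fell (Cat) with a scaled one, and 3 rose and 2 fell (Cat and Gclm) with none. Over all gene names 6.07% were called higher and 9.21% lower with full removal, 5.59% and 10.1% with a scaled one, and 8.92% and 14.0% with none, which makes 15.3%, 15.7% and 22.9% in either direction. Between shSnail and shLoxl2 cells, 1 gene was higher (Sod1) and 1 lower (Cat) of the 10, beside 12.9% of all gene names.

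Probes with a pattern like that of Hmox1 were sought among those named through RefSeq. Likeness was the Euclidean distance over 4 values, the 2 shLoxl2 pair averages and the 2 dye-corrected shSnail ratios. Hmox1 itself had 1.90, 2.05, 1.68 and 1.64. The nearest was Aldh2, the mitochondrial aldehyde dehydrogenase, with 1.83, 2.04, 1.69 and 1.90 (distance 0.272). Next came Mmrn2 (distance 0.562), Crip1 (0.653), the metallothionein Mt2 (0.806), which binds zinc and copper, and Micall2 (0.824). All 5 rose in both silenced lines, with limma adjusted p from 0.00131 to 0.00546 in shLoxl2 cells and from 0.00352 to 0.0188 in shSnail cells. They were picked by likeness to these same values, so their rise is a description.

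Related redox genes were then counted by role from a list of 101, of which 93 had a tested probe. In shLoxl2 cells 13 rose and 7 fell, with a median log2 fold change of 0.00, beside 8.33% of gene names called higher and 5.89% called lower. In shSnail cells 11 rose and 10 fell (median 0.07), beside 6.07% and 9.21%. The shSnail counts, here and by role below, are with full removal of the dye effect. Between shSnail and shLoxl2 cells 11 were higher and 8 lower, beside 4.35% and 8.56%. Of the listed genes only Mgst3, Oplah and Srxn1 had a second tested probe. Neither probe of these genes passed in any comparison, so no call was checked by a second probe.

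Of the regulators of the NRF2 pathway, 2 were higher and 2 lower in shSnail than in shLoxl2 cells. Of 10 tested, 0 passed in shLoxl2 cells (4 at an unadjusted p below 0.05), and Nfe2l2, which encodes NRF2, was at -0.35 there (SE 0.10, limma adjusted p = 0.0857). In shSnail cells 2 rose and 2 fell. Nfe2l2 fell by 1.46 log2 units (SE 0.15, limma adjusted p = 0.00402), with ratios of -1.39 and -1.38 on the arrays before dye correction. Sqstm1, the autophagy receptor p62 that binds KEAP1, rose by 1.53 (SE 0.20, limma adjusted p = 0.00711), although its silenced channel was saturated on 3 of the 6 arrays and its shGFP channel on 1. Keap1 itself, the adaptor that marks NRF2 for degradation, was at 0.41 in shLoxl2 cells and -0.04 in shSnail cells and did not pass. Between shSnail and shLoxl2 cells Nfe2l2 differed by -1.11 (SE 0.16, limma adjusted p = 0.0201), and Rbx1, a RING subunit of the cullin ligases, by 1.87 (SE 0.26, limma adjusted p = 0.0202).

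Of 10 heme and iron genes tested, 3 rose, 1 fell and 6 did not pass in shLoxl2 cells. In shSnail cells 0 passed, and 4 had an unadjusted p below 0.05. Ireb2 passed there as lower under a scaled dye effect (-0.83, limma adjusted p = 0.0195). Blvrb, a biliverdin reductase that acts downstream of heme oxygenase, fell in shLoxl2 cells by 1.33 (SE 0.14, limma adjusted p = 0.00452). Blvra, the other biliverdin reductase, rose by 0.63 (SE 0.13, limma adjusted p = 0.0301), and the second heme oxygenase, Hmox2, by 0.73 (SE 0.13, limma adjusted p = 0.0191). Aco1, the iron regulatory protein with aconitase activity, rose by 0.76 (SE 0.13, limma adjusted p = 0.0184). Between shSnail and shLoxl2 cells Blvrb was higher by 0.82 (limma adjusted p = 0.0445), a call lost with a scaled dye effect (0.72, limma adjusted p = 0.0893).

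Of 8 genes of glutathione synthesis and turnover, 2 rose and 1 fell in shLoxl2 cells and 0 passed in shSnail cells (1 at an unadjusted p below 0.05). Cth, which makes cysteine from cystathionine, fell by 1.67 (SE 0.15) in shLoxl2 cells, and Chac1, which breaks down glutathione, rose by 1.17 (SE 0.13) there with its silenced channel saturated on 2 arrays. Both differed between the lines, Cth by 1.93 (limma adjusted p = 0.0165) and Chac1 by -1.66 (limma adjusted p = 0.0170) in shSnail against shLoxl2 cells. Of 7 glutathione peroxidases 0 passed in shLoxl2 cells, also at an unadjusted p below 0.05, and 2 rose in shSnail cells. These were Gpx8, an enzyme of the endoplasmic reticulum, at 0.94 (SE 0.15, limma adjusted p = 0.0132), and Gpx4, which reduces lipid peroxides, at 1.11 (SE 0.25, limma adjusted p = 0.0319). Gpx4 also differed between the lines, by 1.12 in shSnail against shLoxl2 cells (limma adjusted p = 0.0396).

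Of 21 glutathione transferases, 2 rose and 2 fell in shLoxl2 cells, and 3 rose and 5 fell in shSnail cells. Gsta4, which conjugates lipid aldehydes, fell by 1.01 (SE 0.12, limma adjusted p = 0.00663) in shLoxl2 cells, while Gstt3 rose by 1.40 (SE 0.19, limma adjusted p = 0.00896). In shSnail cells Gstm5 rose by 1.43 (SE 0.14, limma adjusted p = 0.00399) and Gstm3 fell by 1.90 (SE 0.23, limma adjusted p = 0.00631). Members of the Gstm family are near-identical in sequence in places, so signal may be shared between them. Gstm3 differed between shSnail and shLoxl2 cells by -1.43 and Gstm5 by 0.94, both past the threshold (limma adjusted p = 0.0178 and 0.0263).

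Of 15 thioredoxin, peroxiredoxin and glutaredoxin genes, 2 rose and 2 fell in shLoxl2 cells, and 1 rose and 1 fell in shSnail cells. Under a scaled dye effect Txnrd2, Prdx3 and Glrx5 also passed as higher in shSnail cells (limma adjusted p = 0.0434, 0.0324 and 0.0291). The glutaredoxin Glrx had opposite signs in the lines. It rose by 1.28 in shLoxl2 cells (SE 0.11, limma adjusted p = 0.00280), with ratios from 1.11 to 1.48 on the 4 arrays, and fell by 0.92 in shSnail cells (SE 0.18, limma adjusted p = 0.0227), with ratios from -1.05 to -0.86 on the 2 arrays. The difference of shSnail from shLoxl2 was -2.20 (SE 0.18, limma adjusted p = 0.0148). Txnrd2, the mitochondrial thioredoxin reductase, rose by 1.09 in shLoxl2 cells (SE 0.14, limma adjusted p = 0.00705). Glrx3 rose by 0.96 in shSnail cells (SE 0.22, limma adjusted p = 0.0325) and differed by 1.23 between the lines. Sod3 and Ccs, the copper chaperone of Sod1, did not pass in any comparison, with Ccs at -0.07 in shLoxl2 cells and 0.64 in shSnail cells.

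Among 9 genes of NADPH supply 2 rose in shLoxl2 cells, Pgd by 1.07 (SE 0.13, limma adjusted p = 0.00671) and Idh2 by 0.80 (SE 0.15, limma adjusted p = 0.0216), and 0 fell, with 1 lower at an unadjusted p below 0.05. Pgd is the second dehydrogenase of the pentose phosphate pathway. In shSnail cells Pgls, the lactonase of that pathway, rose by 0.79 (SE 0.15, limma adjusted p = 0.0195). Me1 and Nnt also passed there as higher under a scaled dye effect (limma adjusted p = 0.0344 and 0.0486). Of 11 detoxification genes, 2 rose and 1 fell in shLoxl2 cells, and 2 rose and 2 fell in shSnail cells. Abcc4 also passed as lower in shSnail cells under a scaled dye effect (limma adjusted p = 0.0280). Aldh3a1, an aldehyde dehydrogenase, fell in both lines, with log2 fold changes of -2.06 (SE 0.13, limma adjusted p = 0.00139) in shLoxl2 cells and of -2.36 (SE 0.17, limma adjusted p = 0.00352) in shSnail cells. The carbonyl reductase Cbr1 rose by 0.97 (SE 0.14, limma adjusted p = 0.00942) in shLoxl2 cells. The epoxide hydrolase Ephx1 rose by 1.61 (SE 0.17, limma adjusted p = 0.00402) in shSnail cells. Nqo2, the other quinone reductase gene beside Nqo1, rose in both lines. Its log2 fold change was 1.13 (SE 0.16, limma adjusted p = 0.0105) in shLoxl2 cells and 2.09 (SE 0.25, limma adjusted p = 0.00631) in shSnail cells.

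**Figure D5:**
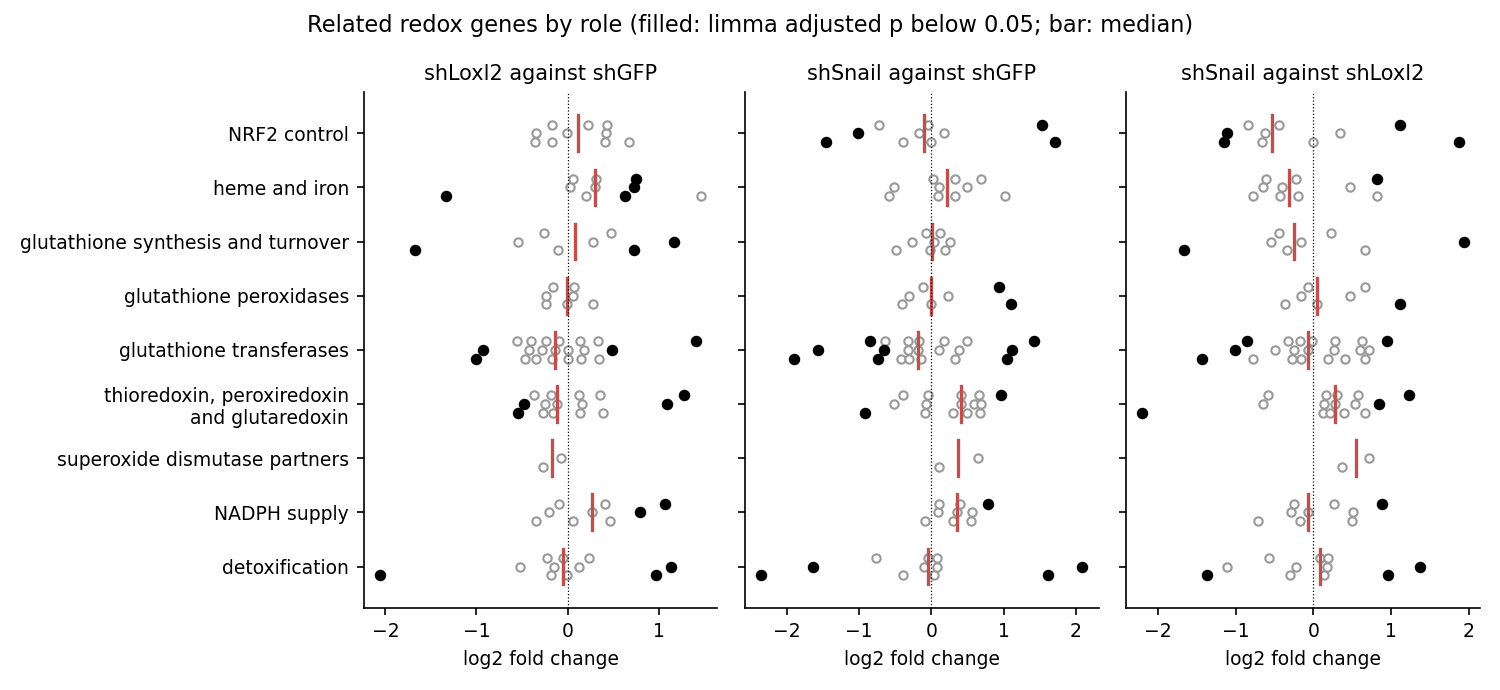
Log2 fold change of the 93 related redox genes (points) by role in the 3 comparisons, filled where the limma adjusted p was below 0.05, with a bar at the median of each role. In all 3 comparisons filled points lie on both sides of 0 for the glutathione transferases and the detoxification genes. The same holds for the thioredoxin, peroxiredoxin and glutaredoxin genes. In shLoxl2 cells the NRF2 regulators, the glutathione peroxidases and the superoxide dismutase partners have none.

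The labels name no cell type for HACA cells. Of 7 keratinocyte and epithelial markers tested, 4 (Krt5, Krt14, Krt18 and Trp63) were well above background in all 12 channels. The log2 of the summed level of all 7 ran from 16.66 to 17.25 in shLoxl2, from 16.54 to 16.54 in shSnail and from 16.85 to 17.39 in shGFP channels. Trp63 fell in both lines, with log2 fold changes of -1.15 in shLoxl2 cells (limma adjusted p = 0.00442) and of -1.71 in shSnail cells (limma adjusted p = 0.00361). Other markers of the list rose: Epcam by 1.51 (limma adjusted p = 0.00167) and Cdh1 by 1.08 (limma adjusted p = 0.00488) in shLoxl2 cells, and Krt8 by 1.12 (limma adjusted p = 0.00787) in shSnail cells, although these were well above background in only 1 or 2 of the 6 shGFP channels. The summed level of 5 leukocyte and macrophage markers, cells in which Hmox1 is also expressed, ran from 10.38 to 10.89 in shLoxl2, from 10.76 to 10.95 in shSnail and from 10.37 to 10.86 in shGFP channels, and of these Cd68 rose by 0.66 in shLoxl2 cells (limma adjusted p = 0.0184). The other 4 did not pass there and lay between -0.30 (Adgre1) and -0.06 (Csf1r). That of 3 erythroid markers ran from 9.61 to 10.50, from 10.12 to 10.30 and from 9.60 to 10.50, that of 4 fibroblast markers from 9.27 to 9.89, from 9.66 to 9.69 and from 9.88 to 10.25, and that of 2 endothelial markers from 8.09 to 8.39, from 8.61 to 8.73 and from 7.91 to 8.60, in the same order of lines. Pdgfra, of the fibroblast list, was at -0.82 in shLoxl2 cells (limma adjusted p = 0.0120) and at -1.18 in shSnail cells (limma adjusted p = 0.0104). The part of other cell types in the results was not tested.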

How the data were processed

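RNA of 4 shLoxl2 and 2 shSnail hybridisations was measured on 2-colour arrays against shGFP RNA. The deposited files give the intensity of each spot in Cy3 and Cy5. Per the file headers they come from Agilent's Feature Extraction 9.5.1.1, and per the submitters' processing notes from 6.1.1. The authors' value table holds the deposited log10 ratios of that software, rounded (match within 0.006). Its median lay between 0.0371 and 0.098 by array, with Cy5 over Cy3 as direction and no further centring. Its column for shSnail replicate 2 matched the array of replicate 1 at 100% of spots and its own array at 9.37%, so it served only as an alternative, with 1 shSnail array.

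Mean intensities less local background medians (normexp, offset 50) were normalised by loess within arrays in limma 3.58.1 (R 4.3.3, data.table version 1.17.8), giving no weight to outlier spots or to the 736 control spots. Averaging the 21318 spots of probes gave 20868 probes, of which 19752 were well above background in a channel on at least 2 arrays and were tested. RefSeq (GRCm38.p6) named 14711 probes and the files 6157. Log2 ratios are silenced over shGFP, from the dyes in the labels. Channel levels were scaled between arrays by Aquantile.

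For shLoxl2 against shGFP, the 2 arrays of a number were taken as a dye swap of 1 RNA sample and averaged, and fitted with the shSnail arrays sharing the spread. For shSnail against shGFP, all 6 arrays were fitted with a dye term. Both arrays of a shLoxl2 sample entered that fit singly, not averaged, so its p-values treat them as independent. For shSnail against shLoxl2, the 4 Cy5 arrays were used. Each fit used lmFit and eBayes of limma, with p-values adjusted after Benjamini-Hochberg over all tested probes (threshold 0.05), and was tested on simulated data. Intervals are 95%. The members, the lists and the tests were chosen with earlier results of these data known. Named are the 10 genes with every probe, Loxl2 and Snai1, and the 5 probes named through RefSeq that were nearest to Hmox1. For each role and comparison up to 2 listed genes are named by smallest p. Calls of NADPH supply and detoxification genes between shSnail and shLoxl2 are not given by name. Hmox2, Blvra, Nqo2, Keap1, the Nfe2l2 value in shLoxl2 cells, Sod3, Ccs and single markers were named besides, after their values were seen. So were listed genes with a second probe and those that passed only under a scaled dye effect.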

Additional observations from a re-analysis of the deposited data

Results flagged for a closer look

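Among the shLoxl2 ratios of Prdx1, the -0.65 of replicate 1 in Cy3 stood apart from the other 3, which lay between -0.45 and -0.44. Among independent values, chance alone sets a value apart in this way in about 1 of 20 groups. These 4 ratios come from 2 RNA samples, each in both dyes, so that rate need not hold for them.

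The difference of shSnail from shLoxl2 cells was marked for 4 genes. Sod1 (1.15) and Cat (-0.74) passed limma's test of the difference itself. For Gclc (-0.26, limma adjusted p = 0.305) and Prdx1 (0.75, limma adjusted p = 0.0504) the difference was tested and missed the threshold. In both genes every array of one line lay on the opposite side of 0 from every array of the other. The Gclc ratios all lay close to 0, and the share of all probes with such opposite signs was not counted.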

How the results depend on the processing

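Called probes numbered 2751 in shLoxl2 against shGFP, 3000 in shSnail against shGFP and 2527 between shSnail and shLoxl2, with 3, 3 and 2 of the 10 genes among them. With the scanner software's log ratios they were 776, 2932 and 2352, with 1, 2 and 1 of the 10 genes. The authors' value table, with 1 shSnail array, gave 0 called probes and 0 called genes in all 3 comparisons by limma, but 3476, 3878 and 3863 probes had an unadjusted p below 0.05. Median centring gave 7179 and 9379 in the comparisons of shSnail with shGFP and with shLoxl2, with 5 and 7 of the 10 genes. Of these genes 1 was higher and 4 lower in shSnail than in shGFP cells (3 and 0 under loess), and 1 was higher and 6 lower in shSnail than in shLoxl2 cells (1 and 1 under loess), where Hmox1, Nqo1, Gclc, Gclm and Gsr newly passed as lower. In these comparisons no background subtraction gave 3935 and 3225 probes and the strict filter on dim probes 3305 and 3063, each with 6 and 4 of the 10 genes, 3 higher and 3 lower against shGFP and 3 higher and 1 lower against shLoxl2. With no dye correction 4506 probes and 5 genes were called for shSnail against shGFP.

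Leaving out samples in turn, the lone sample left being assumed to vary like the others, gave 1747 to 2806 probes and 2 genes in shLoxl2 against shGFP, 2 to 5870 probes and 0 to 6 genes in shSnail against shGFP, and 39 to 4308 probes and 0 to 3 genes between shSnail and shLoxl2. The lowest counts came without shSnail replicate 1 or 2. Of probes called for shSnail against shGFP, 1162 were higher and 1838 lower, against 638 and 2294 with the scanner's log ratios and 3672 and 3507 with median centring. For shSnail against shLoxl2 they were 837 and 1690, against 424 and 1928, and 5022 and 4357. The median over all probes was -0.04 in both, against -0.28 with the scanner's log ratios and 0.10 and 0.12 with median centring.

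Of single values of the 10 genes, 311 kept direction and side of the threshold over all alternatives, 36 newly passed, 29 no longer passed and 17 turned sign. No called value turned sign. For shSnail against shGFP under median centring these were Txnrd1 (-0.37), Gsr (-0.27, other probe -0.32), Prdx1 (-0.14) and the dim Sod1 probe (0.17), and further Txnrd1 without shSnail replicate 1 (-0.02) and the other Gsr probe without shSnail replicate 2 (-0.01) or in the authors' table (-0.02). For shLoxl2 against shGFP they were the dim Sod1 probe (0.06 in the scanner's log ratios and in the table, -0.21 to 0.13 with a replicate left out) and Sod2 (-0.02 to 0.27 with a replicate left out). For shSnail against shLoxl2 they were Txnrd1 (-0.12) and the dim Sod1 probe (0.33) under median centring, and Nqo1 with a sample left out (-0.22 to 0.09) and with a scaled dye effect (0.33). Apart from fewer samples, the cause was not tested.

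Both silenced groups carry numbers 1 and 2 in the labels. On the Cy5 arrays the differences between numbers correlated at 0.208 across probes, but with 2 pairs the numbers are not taken to pair the samples. With the replicate block 2720 probes and 1 of the 10 genes were called for shSnail against shLoxl2. The scan could not be fitted as a block, since each day held 1 silenced line, nor the slide, since each held 1 array.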
